A study of Mus musculus with 12 samples.

Results

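Nucleotide excision repair genes were examined in total mRNA of mouse splenic B cells. The 10 genes were chosen by name as core factors of the pathway (Xpc, Ddb1, Ddb2, Xpa, Ercc1, Ercc2, Ercc3, Ercc4, Ercc5 and Ercc6), and all 10 were found among the 29486 genes of the deposited table. B cells of C57BL/6Babr mice were isolated from spleen, activated in culture with LPS (lipopolysaccharide, a bacterial mitogen, 10 μg/ml) and sequenced as polyA RNA in 3 conditions of 4 libraries each. All cells received LPS. The condition called LPS received nothing else and is labelled 48 h. The condition LE received LPS for 48 h and then etoposide (20 μM, 4 h), a topoisomerase II inhibitor that breaks DNA, and LEKU received LPS for 47 h, the ATM kinase inhibitor KU55933 (10 μM) for 1 h and then etoposide (4 h). No cells received KU55933 without etoposide. By these labels LE and LEKU were in culture longer than LPS, so culture time and etoposide cannot be told apart in comparisons with LPS. A figure legend of the study, for protein measurements, instead places etoposide in the last 4 h of the 48 h.

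Nucleotide excision repair removes bulky lesions, such as those made by ultraviolet light, by cutting out a short stretch of the damaged strand and filling the gap. Lesions are found either anywhere in the genome, by XPC and the DDB1-DDB2 complex, or where an RNA polymerase stalls, with the help of CSB (encoded by Ercc6). Both routes lead to the TFIIH complex, which opens the DNA with the helicases XPB (Ercc3) and XPD (Ercc2). XPA verifies the lesion, and the nucleases XPG (Ercc5) and XPF-ERCC1 (Ercc4 and Ercc1) cut on either side of it. Several genes of the pathway are known targets of p53, the transcription factor that ATM activates after DNA damage.

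The value in each library was not an independent measurement. Any 2 columns of a condition had the same ratio for every gene, so each value is 1 mean fitted for the condition times a factor of the library, and the table holds no spread between replicates. No test between conditions could therefore be made from this table. The authors deposited their own test results for these comparisons, with standard errors and p-values, which were not used here, and no p-value is given. Each value was divided by a size factor of its library, and the result is called the level here. A difference is the log2 ratio of levels with 1 added to each. Its counting interval (95%, Clopper-Pearson, on the counts summed over the 4 libraries of each condition) covers counting error only, takes the fitted values as counts, and is narrower than an interval with the spread between cultures would be. A difference of at least 1.5-fold was used as the mark for counting genes. Column totals, in units of 1000000, stood for depth and ranged from 20.7 to 23.9 with LPS, from 22.5 to 30.6 in LE and from 20.4 to 25.1 in LEKU. The libraries of each condition carried Illumina indexes that no other condition had, so index and condition cannot be told apart.

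The labelled cell type and treatment were visible in the table. 5 B-cell markers (Cd79a, Cd79b, Ms4a1, Pax5 and Cd22) had levels of 1122 or more in each condition, and 4 T-cell markers (Cd3e, Cd3g, Cd4 and Cd8a) lay between 0.698 and 1.96. Klrb1c, the one NK-cell marker found in the table of 2 listed, was at 1.07 or less. The summed B-cell markers went from 104890 with LPS to 55074 in LE and 53025 in LEKU, 5 of the 5 being lower in LE than with LPS. Between LEKU and LE 4 of the 5 were higher, and Ms4a1 was lower (20588 in LE and 13350 in LEKU). The 6 macrophage markers summed to 418, 468 and 431 but differed among themselves. Cd14 had levels of 5.18, 24.2 and 40.6, Cd68 of 105, 211 and 175 and Csf1r of 4.18, 10.3 and 9.72, while Itgam had 220, 129 and 115. The erythroid gene Hbb-bs had levels of 60.8, 41.6 and 28.5 in the same order. None of these markers was at 0. Their part in the differences below was not tested, and in bulk RNA fewer cells of a type and less RNA per cell cannot be told apart. Cdkn1a, the p53 target that encodes the cell cycle inhibitor p21, had levels of 412, 13448 and 10787 in LPS, LE and LEKU, and Mdm2, which encodes the ubiquitin ligase that limits p53, had 2627, 16665 and 9510.

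Etoposide was accompanied by a large difference in 1 of the 10 genes. Ercc5 mRNA was 9.22-fold higher in LE than with LPS, while the other 9 genes lay between 0.921-fold (Ddb2) and 1.31-fold (Ercc4). Of the 10 genes, 1 was past 1.5-fold, against 38.2% of the 15507 genes that passed the filter on low values (a value of at least 10 in at least 4 libraries). That share was made up of 21.9% higher and 16.2% lower genes. All 10 members passed this filter, each with a lowest value of 254 or more. The median difference of the 10 genes was 0.20 on the log2 scale, and the median of all 15507 genes was −0.015. By sign 8 of the 10 were higher and 2 lower, beside 48.9% of all genes higher. Ddb1 and Ddb2 were the lower ones. With library totals as the scaling all 10 were higher, and with upper-quartile factors or quantile normalization 9 were.

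With KU55933 under etoposide none of the 10 genes was past 1.5-fold, against 18.7% of all genes (7.16% higher and 11.6% lower). The largest differences were those of Ercc5, at −0.49 on the log2 scale, and of Xpa and Ddb2, both at 0.45. By sign alone 4 genes were higher and 6 lower, beside 45.7% of all genes higher. With 4 of the 5 other scalings 5 of the 10 were higher, as Ercc6 changed sign. Between LEKU and LPS, 2 genes were past 1.5-fold, Ercc5 (6.57-fold) and Xpa (1.66-fold), both higher, against 36.1% of all genes (20.5% higher and 15.5% lower). LE and LEKU share the LPS libraries in their comparisons with LPS, and the comparison of LEKU with LE shares the LE libraries with the first, so the 3 differences of a gene are not independent of each other.

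**Figure D1:**
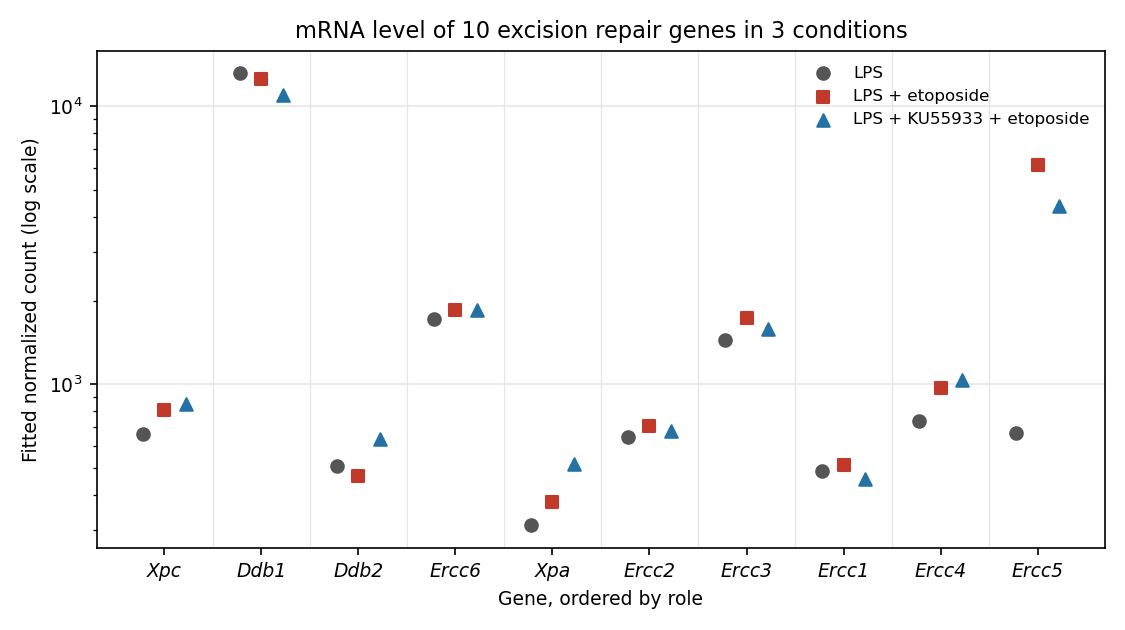
Level of each gene (fitted normalized count divided by the size factor, log scale on the y axis) with LPS (grey circles), LPS and etoposide (red squares) and LPS, KU55933 and etoposide (blue triangles). Each point is 1 fitted mean over 4 libraries, without a measure of spread; Ercc5 goes from 668 to 6166 and 4393, and Ddb1 lies above all others at 13159, 12588 and 11009.

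Ercc5 encodes XPG, the nuclease that cuts on the 3′ side of the lesion and also holds TFIIH together. The gene (ENSMUSG00000026048) lies on chromosome 1 from 44147744 to 44181260 on the plus strand (GRCm38, GENCODE M21), and no other annotated gene overlaps it. Its deposited values were 546, 606, 630 and 568 in LPS replicates 1 to 4. They were 5992, 6716, 8134 and 6510 in LE and 3985, 4494, 4815 and 4894 in LEKU. Every LE value lay above every LEKU value, and every LEKU value above every LPS value. The spread within a condition reflects library factors alone, and the same replicate was highest for every gene of a condition. Size factors also differed between conditions, from 0.817 to 0.943 with LPS and from 0.972 to 1.32 in LE. Deposited values of LE can thus lie above those with LPS without a difference in level. Whether deposited values overlap is therefore no evidence from replicates, here or for the genes below. After scaling, the levels were 668 with LPS, 6166 in LE and 4393 in LEKU.

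The difference in Ercc5 between LE and LPS was 3.20 on the log2 scale (counting interval 3.15 to 3.27). Of the 15507 genes, 262 had a higher difference. In LEKU it was 0.712-fold its level in LE (log2 −0.49, counting interval −0.52 to −0.46). It remained 6.57-fold above LPS (log2 2.72, counting interval 2.66 to 2.78), where 145 genes had a higher difference. On the log2 scale, 84.7% of the difference between LE and LPS was thus present with the inhibitor. For Mdm2 this figure was 69.6% and for Cdkn1a 93.7%. Over 5 other scalings the difference in Ercc5 between LE and LPS stayed between 3.20 and 3.33, and that between LEKU and LE between −0.50 and −0.42.

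Since Ercc5 was the member with the largest difference and Ddb1 the one with the highest level, the sequences around their transcription starts are shown. They run 5′ to 3′ on the strand of the gene, from 250 bases before the RefSeq start to 50 after it (GRCm38.p6). They lie at chr1:44147494-44147793 for Ercc5 and at chr19:10605347-10605646 for Ddb1. The RefSeq start of Ercc5 is that of the GENCODE gene, and the RefSeq start of Ddb1 (10605597) lies 270 bases inside the GENCODE gene, which begins at 10605327. Capitals mark CCAAT, a box bound by NF-Y, in Ercc5, and GGGCGG, the GC box bound by Sp1, in Ddb1.
Ercc5: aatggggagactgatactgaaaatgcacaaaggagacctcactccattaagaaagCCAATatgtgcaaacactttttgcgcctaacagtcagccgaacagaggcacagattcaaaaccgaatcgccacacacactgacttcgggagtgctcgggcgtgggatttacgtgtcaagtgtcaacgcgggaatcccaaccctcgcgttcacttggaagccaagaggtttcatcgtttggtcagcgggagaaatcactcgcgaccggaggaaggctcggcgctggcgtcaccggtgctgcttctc
Ddb1: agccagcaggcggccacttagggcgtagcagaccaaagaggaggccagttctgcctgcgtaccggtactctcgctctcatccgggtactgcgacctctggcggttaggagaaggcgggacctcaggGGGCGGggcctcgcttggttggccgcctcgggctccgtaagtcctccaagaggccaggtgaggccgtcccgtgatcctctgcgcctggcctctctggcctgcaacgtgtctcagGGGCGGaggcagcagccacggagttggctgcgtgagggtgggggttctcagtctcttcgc

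Of the 10 genes, 7 had such a window that was searched (Ddb1, Ercc6, Xpa, Ercc2, Ercc1, Ercc4 and Ercc5). Any member window on chromosome 18, where Ercc3 lies, was left out of the search. The windows of all genes, used for the shares below, kept that chromosome. Xpc, Ddb2 and Ercc3 are named only. On both strands, CCAAT was found in 4 of the 7 windows (Xpa, Ercc2, Ercc4 and Ercc5) and in 37.4% of 32851 windows of the same length. GGGCGG was found in 4 of 7 (Ddb1, Ercc6, Ercc2 and Ercc1) and in 35.7% of all windows. The decamer to which p53 binds was searched by its consensus and matched none of the 7, against 8.36% of all windows. Ercc5 held the same CCAAT letters as Xpa, Ercc2 and Ercc4, and no match to the decamer in these 300 bases. Only exact matches within the windows were searched, and sequence outside them was not. Any relation of these motifs to the differences was not tested. The GC content of the 7 windows ranged from 53.3% (Xpa, Ercc4 and Ercc5) to 66.7% (Ddb1).

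Ercc4 and Ercc1 encode XPF and ERCC1, which form a single nuclease that cuts on the 5′ side. Ercc4 (ENSMUSG00000022545, chromosome 16, 13109684 to 13150617, plus strand) had values of 605, 672, 699 and 630 with LPS. They were 942, 1056, 1279 and 1024 in LE and 936, 1056, 1131 and 1150 in LEKU. As deposited, LE and LEKU lay above LPS and overlapped with each other. Its level went from 741 to 970 and 1032, a log2 difference of 0.39 between LE and LPS (counting interval 0.32 to 0.46) and of 0.48 between LEKU and LPS (0.41 to 0.55). With library totals as the scaling the last difference was 0.65, past 1.5-fold. Between LE and LPS only Ercc5 of the 10 genes had a larger difference. Between LEKU and LE it was 0.090 (0.029 to 0.15).

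Ercc1 (ENSMUSG00000003549, chromosome 7, 19344778 to 19356524, plus strand) had levels of 486, 511 and 454. Its difference was 0.072 between LE and LPS, with a counting interval that holds 0 (−0.019 to 0.16), and −0.17 between LEKU and LE (−0.26 to −0.080). Its LE values, from 497 to 674, lay above its LPS values, from 397 to 459, as deposited, while the scaled levels differed by 1.05-fold. The fitted differences of these partner subunits, 0.39 and 0.072 between LE and LPS, were not tested against each other. Between LEKU and LPS the difference of Ercc1 was −0.097, and it was 0.077 with library totals. Per kilobase of exon, the level of Ercc4 was 0.704 times that of Ercc1 with LPS, 0.877 times in LE and 1.05 times in LEKU. Ercc5 stood at 1.04 times the level of Ercc4 per kilobase with LPS, at 7.30 times in LE and at 4.88 times in LEKU.

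Lesion recognition is carried by Xpc, Ddb1 and Ddb2, of which Xpc and Ddb2 are described as p53 targets, Ddb2 chiefly in human cells. Xpc (ENSMUSG00000030094, chromosome 6, 91489305 to 91515888, minus strand) had values from 540 to 623 with LPS, from 784 to 1064 in LE and from 770 to 946 in LEKU. Its levels were 661, 807 and 849. The difference was 0.29 between LE and LPS (counting interval 0.21 to 0.36) and 0.074 between LEKU and LE (0.0062 to 0.14). Xpc was thus 1.22-fold higher in LE than with LPS, and 1.05-fold higher in LEKU than in LE.

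Ddb2 (ENSMUSG00000002109, chromosome 2, 91211572 to 91236982, minus strand) encodes the subunit that binds ultraviolet lesions. Its values were 414, 460, 478 and 431 with LPS. They were 454, 509, 616 and 493 in LE and 579, 652, 699 and 711 in LEKU. As deposited, LPS and LE overlapped, as did LE and LEKU, while LEKU lay above LPS. The level was 507 with LPS, 467 in LE and 638 in LEKU. The difference between LE and LPS was −0.12 (counting interval −0.21 to −0.026), and it was 0.012 with library totals as the scaling. Between LEKU and LE it was 0.45 (0.37 to 0.53), a level 1.36-fold higher with the inhibitor. Over the other scalings this difference lay between 0.44 and 0.49. Of all genes, 1767 had a higher difference between LEKU and LE.

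Ddb1 (ENSMUSG00000024740, chromosome 19, 10605327 to 10629819, plus strand) encodes the adaptor that joins DDB2 to the CUL4 ubiquitin ligases and that serves many other substrates. It was the most abundant of the 10 genes, above 98.4% of all genes with LPS. Its values ranged from 10756 to 12413 with LPS, from 12232 to 16605 in LE and from 9988 to 12265 in LEKU. The levels were 13159, 12588 and 11009, so that the order of the scaled levels was not that of the deposited values. The differences were −0.064 between LE and LPS (counting interval −0.082 to −0.046) and −0.19 between LEKU and LE (−0.21 to −0.18). The first sign depended on the scaling: it was 0.067 with library totals, 0.017 with upper-quartile factors and 0.21 after quantile normalization. Between LEKU and LPS the difference was −0.26, and it was 0.080 after quantile normalization. Per kilobase of exon, Ddb1 exceeded Ddb2 11.1-fold with LPS, 11.5-fold in LE and 7.37-fold in LEKU.

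Xpa encodes the small zinc finger protein that checks the lesion and gathers the other factors. The gene (ENSMUSG00000028329, chromosome 4, 46155347 to 46196311, minus strand) had the lowest level of the members with LPS, without division by exonic length. Per kilobase of exon (scale given below), Xpa stood at 19.8 with LPS, above Ercc4, which was the lowest at 13.2. The values of Xpa were 254, 282, 293 and 264 with LPS. They were 367, 411, 498 and 399 in LE and 469, 529, 567 and 576 in LEKU. The deposited values of LE and LEKU lay above those with LPS, and LE overlapped with LEKU. The levels were 311, 378 and 517, which is 1.21-fold higher in LE than with LPS and 1.37-fold higher in LEKU than in LE. On the log2 scale these differences were 0.28 (counting interval 0.17 to 0.39) and 0.45 (0.36 to 0.55). Between LEKU and LPS the difference was 0.73 (0.63 to 0.84), and it stayed between 0.67 and 0.91 over the other scalings. Xpa and Ercc5 were the members past 1.5-fold in that comparison, and their differences between LEKU and LE had opposite signs.

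**Figure D2:**
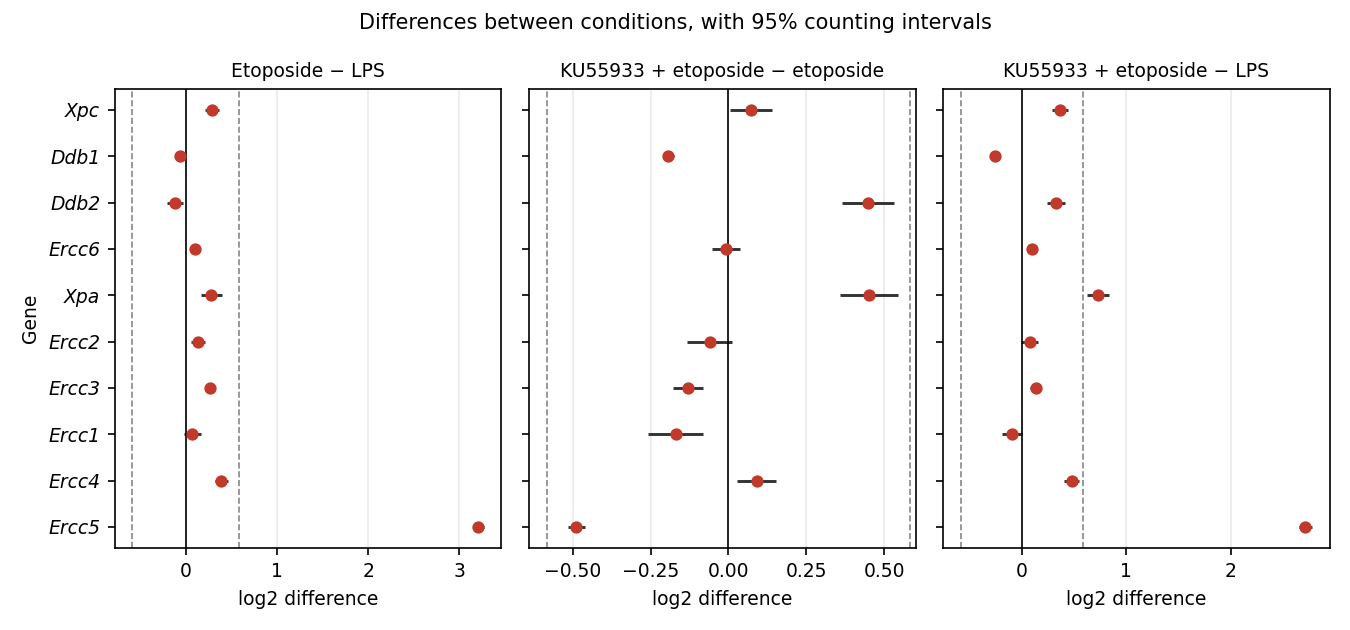
Log2 difference of the 10 genes between each pair of conditions (x axis, with its own range in each panel), with the counting interval (95%, counting error only) as a horizontal bar and dashed lines at 1.5-fold. Ercc5 stands at 3.20 and 2.72 against LPS; between LEKU and LE all points lie inside the dashed lines, with Ercc5 at −0.49 and Xpa and Ddb2 at 0.45.

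The TFIIH helicases and CSB differed little. Ercc3 (ENSMUSG00000024382, chromosome 18, 32240300 to 32270151, plus strand) encodes XPB, which TFIIH needs for transcription as well as for repair. Its values ranged from 1182 to 1364 with LPS, from 1687 to 2291 in LE and from 1439 to 1767 in LEKU. Its levels were 1446, 1737 and 1586. The difference between LE and LPS was 0.26 (counting interval 0.21 to 0.32), and that between LEKU and LE was −0.13 (−0.18 to −0.083).

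Ercc2 (ENSMUSG00000030400, chromosome 7, 19382010 to 19395694, plus strand) encodes XPD, the helicase that scans the opened strand. It had values from 527 to 608 with LPS, from 689 to 936 in LE and from 617 to 758 in LEKU, and levels of 645, 710 and 680. Its difference between LE and LPS was 0.14 (counting interval 0.060 to 0.22). The intervals of the other comparisons hold 0, from −0.13 to 0.013 between LEKU and LE and from −0.0032 to 0.16 between LEKU and LPS. Per kilobase of exon, Ercc3 exceeded Ercc2 by 3.30-fold, 3.60-fold and 3.43-fold in LPS, LE and LEKU. This ratio moved much less than that of the nucleases.

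Ercc6 (ENSMUSG00000054051, chromosome 14, 32513521 to 32580990, plus strand) encodes the CSB ATPase of transcription-coupled repair. It had values from 1408 to 1625 with LPS, from 1802 to 2447 in LE and from 1672 to 2054 in LEKU. The levels were 1723, 1855 and 1843, with a difference of 0.11 between LE and LPS (counting interval 0.058 to 0.15). Between LEKU and LE it was −0.0090, and the counting interval from −0.054 to 0.036 holds 0. The sign of this last difference turned positive with 4 of the 5 other scalings.

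Levels of different genes were compared per kilobase of exon, scaled to a sum of 1000000 over the genes with an annotated length. With LPS, Ddb1 (247) and Ercc3 (61.4) stood above the other 8 genes, which lay between 13.2 (Ercc4) and 22.3 (Ddb2). Ercc5 was the ninth of the 10 with LPS, at 13.7. In LE it was the second, at 132, and in LEKU again the second, at 96.3. Ddb1 was first and Ercc3 next after Ercc5 in LE and LEKU. The remaining 7 genes lay between 18.1 (Ercc4) and 25.01 (Xpa) in LE and between 18.4 (Ercc6) and 35.1 (Xpa) in LEKU. Without a spread between replicates, it cannot be said which neighbours in this order differ.

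Exons of 5 members overlap those of a gene on the opposite strand. The study's methods name a stranded kit, where the labels give TruSeq mRNA without that word, and the strand setting of the counting is not given in the sources used here. Whether reads of the shared bases were told apart is therefore not known. Ddb2 shares 652 bases (23.8% of its exonic length) with Acp2, which had levels of 157, 175 and 186 in LPS, LE and LEKU. Its difference was 0.15 between LE and LPS, with a counting interval that holds 0 (−0.0043 to 0.32), and 0.090 between LEKU and LE (−0.054 to 0.24), beside −0.12 and 0.45 for Ddb2. Ercc2 shares 1025 bases (24.6%) with the antisense RNA Gm26852, at levels of 74.2, 71.9 and 66.6, and 744 bases with Klc3, at 18.9, 29.8 and 38.4. Ercc2 also contains Mir343 on the same strand, with 11 bases of exon in common and levels from 5.76 to 6.69. Ddb1 shares 328 bases with Tkfc, at 666, 497 and 409, and Ercc1 shares 106 with Cd3eap, at 265, 179 and 127. Xpa shares 77 bases (4.07%) with Ncbp1, which had levels of 3508, 2462 and 2369.

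The other genes of the pathway formed a list of 40, all of which passed the filter. Between LE and LPS, 10 of the 40 were past 1.5-fold, 1 of them higher and 9 lower, beside the 38.2% of all genes given above. Their median difference was −0.36 on the log2 scale, against 0.20 for the 10 core genes and −0.015 for all genes. By sign 32 of the 40 were lower and 8 higher, beside 48.9% of all genes higher. With library totals 28 of the 40 were lower, and with upper-quartile factors or quantile normalization 29 were. The list includes 17 genes of gap filling and ligation, a step that repair shares with DNA replication. By role, the median difference between LE and LPS was −0.43 for these 17 and −0.45 for the 3 subunits of replication protein A. It was −0.27 for the 6 genes of lesion recognition, −0.28 for the 6 of transcription-coupled repair and −0.23 for the 8 TFIIH subunits. The cause of these lower medians was not tested. With library totals or quantile normalization, 6 of the 40 were past 1.5-fold. Between LEKU and LPS, 14 of the 40 were past 1.5-fold, 1 higher and 13 lower, beside 36.1% of all genes (20.5% higher and 15.5% lower), and after quantile normalization 8 were. Between LEKU and LE none was, beside 18.7% of all genes.

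Among the 17 genes of gap filling and ligation, 6 were past 1.5-fold lower in LE than with LPS, beside 16.2% of all genes. The median of the 17 was −0.43. The count among the 17 was not repeated with the other scalings. With these, fewer of the 40 genes were past the mark in that comparison (6 with library totals or quantile normalization, against 10). Pold1, the catalytic subunit of DNA polymerase delta, had levels of 4168, 1660 and 1894 in LPS, LE and LEKU, a difference of −1.33 between LE and LPS, the lowest of the 40 genes. Its partner Pold3 had levels of 2616, 1554 and 1621 (−0.75). Rfc1, the large subunit of the clamp loader, had 3951, 2419 and 2000, a difference of −0.98 between LEKU and LPS. Pole4 and Pole3, small subunits of DNA polymerase epsilon, had differences of 0.44 and 0.37 between LE and LPS. Pcna, the sliding clamp, had levels of 8912, 7321 and 5375, and its difference of −0.45 between LEKU and LE was the lowest of the 40 genes in that comparison. By name, the annotation holds 2 pseudogenes of Pcna (Pcna-ps1 and Pcna-ps2) with which reads could be shared. The same holds for Rbx1 (Rbx1-ps) and Tcea1 (Tcea1-ps1), which are also among the 40 genes.

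The 3 subunits of replication protein A, which covers the undamaged strand, were all lower in LE than with LPS, with log2 differences from −0.49 to −0.35, and none was past 1.5-fold. Rpa1 was past it in LEKU, at −0.86 against LPS. Of the 8 other TFIIH subunits, Ccnh was past 1.5-fold in LE. This gene encodes cyclin H of the kinase module and had levels of 1014, 552 and 518, a difference of −0.88. The remaining 7 lay between −0.44 (Mnat1) and 0.29 (Gtf2h5). Gtf2h2 and Gtf2h1 were higher in LEKU than in LE by 0.33 and 0.26.

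In transcription-coupled repair, Uvssa was the gene of the 40 past 1.5-fold higher. It encodes the factor that recruits TFIIH to the stalled polymerase. Its levels were 888, 1554 and 1703 in LPS, LE and LEKU, a difference of 0.81 between LE and LPS and of 0.94 between LEKU and LPS. Its partner Usp7, a deubiquitinase that also acts on p53 and Mdm2, had levels of 8309, 4756 and 4110 (−0.80 and −1.02). Ercc8, which encodes CSA, the partner of CSB, had levels of 446, 391 and 371 (−0.19 between LE and LPS).
Among the 6 other genes of lesion recognition, Rad23b, a partner of XPC, had levels of 6137, 4010 and 3528 (−0.61 between LE and LPS). Cul4a, which carries the DDB1-DDB2 ligase, was higher by 0.38 in LE, and its relative Cul4b was lower, at −0.38.

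**Figure D3:**
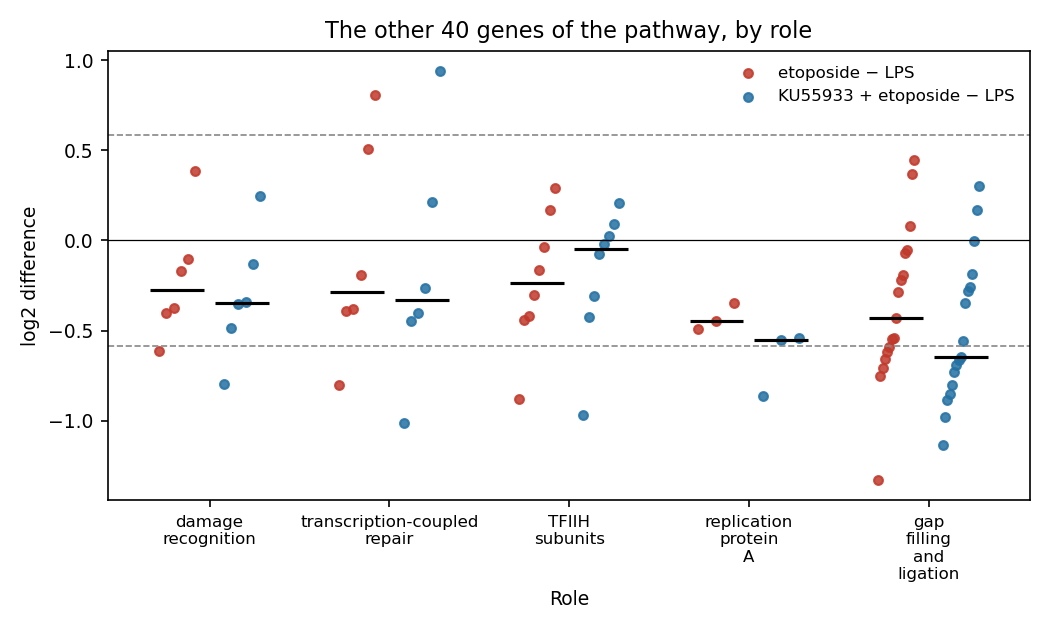
Log2 difference from LPS (y axis) of each of the other 40 genes by role (x axis), in LE (red) and LEKU (blue), with black bars at the median of each role and dashed lines at 1.5-fold. Most points lie below 0 (32 of 40 in each comparison, 28 with library totals), beside 48.9% of all genes higher in LE and 51.6% in LEKU. The median of gap filling and ligation is −0.43 in LE and −0.65 in LEKU.

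By the pair of differences (LE against LPS, LEKU against LE), each gene was compared with 10872 others with a mean level of at least 100. Likeness was the Euclidean distance over these 2 log2 differences, which come from 3 fitted means. Nearest to Ddb2 were Krt222 and Fastk (distances 0.0041 and 0.0081), and nearest to Xpc were Glul, Rdh10 and Tagap1 (0.0086, 0.011 and 0.013). Ercc5 was added after its values were seen. Its nearest genes were 9230114K14Rik (0.094), Sh3bgrl2 (0.10) and Zmat3 (0.15). In this order their pairs of differences were 3.29 and −0.45, 3.25 and −0.58, and 3.22 and −0.64.

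**Figure D4:**
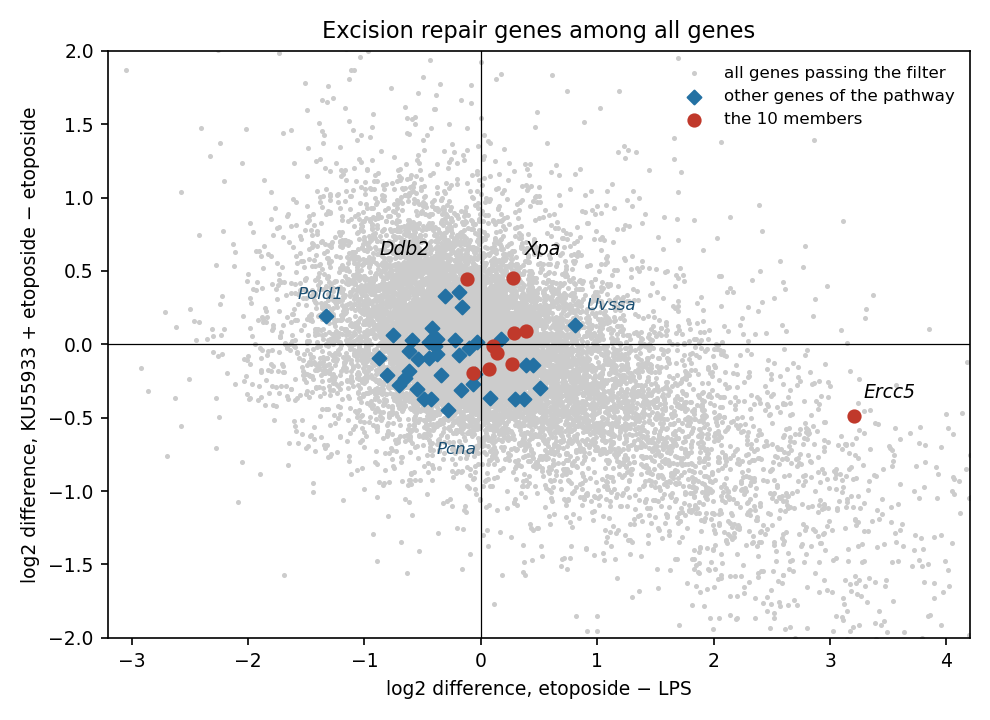
Log2 difference between LE and LPS (x axis) and between LEKU and LE (y axis) for all genes that passed the filter (grey; 191 lie outside the axes), the other 40 genes of the pathway (blue diamonds) and the 10 members (red). The axes share the LE libraries, so their slope is not a result; Ercc5 (3.20, −0.49) stands alone among the red points, and Pold1 (−1.33) and Uvssa (0.81) mark the ends of the blue ones.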

How the data were processed

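Reads (TruSeq mRNA kit, stranded per the study's methods, 100-base single-end) were, per the labels and the study's methods, trimmed with Trim Galore and cutadapt 1.2.1, mapped with TopHat2 2.0.12 to GRCm38, counted with HTSeq on Ensembl genes and fitted with DESeq2 1.6.3. The deposited table, called normalized counts by the authors, holds a signal that is the fitted mean of a condition times a library factor. The 3 deposited comparison tables of the authors hold a mean signal, fold changes, standard errors and p-values. Only the mean was used, for 1 alternative scaling, since the rest are the authors' own findings. The SD of the log2 ratio of LE to LPS over genes was 0.32 at means under 1 and 1.27 at means from 10 to 100, so low genes appear moderated toward 0.

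Columns were divided by median-of-ratios size factors over the 15507 genes with a value of at least 10 in at least 4 libraries. Because the columns of a condition are proportional, the planned limma test could not be run, and levels are given as for 1 sample a group. The members and lists were chosen with earlier results of these data known. Named are all members, the checks and overlapping genes, pathway genes past 1.5-fold (at most 4 each way per comparison, and others as examples of their role, chosen after their values were seen), and the nearest genes of Ddb2 and Xpc. Some genes that these rules name are not reported here. Alternatives were TMM, library totals, upper-quartile factors, quantile normalization, factors from the authors' mean, pseudocounts of 0.5 and 5, no filter, a minimum of 50, calls at 2-fold and at a log2 difference of 0.32, and each library left out. Positions and exonic lengths are from GENCODE M21, which covers 99.5% of the filtered genes. Functions were tested on simulated data. Calculations used pandas 2.3.3, scipy 1.17.1 and numpy 2.4.6 under Python 3.11.15, and plots matplotlib 3.10.9.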

Additional observations from a re-analysis of the deposited data

How the results depend on the processing

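No paired analysis was possible because the columns of a condition are proportional, which leaves no deviation of a replicate to pair and no test from this table. No member difference past 1.5-fold turned its sign over the scalings and pseudocounts tried. Members past 1.5-fold in LE against LPS numbered 1 under every scaling, filter and pseudocount tried, and 2 at a lower mark (a log2 difference of 0.32). For LEKU against LE the count was 0 at 1.5-fold and 3 at the lower mark. For LEKU against LPS it was 2 at 1.5-fold, 3 with library totals (Ercc4 added), 1 at 2-fold and 5 at the lower mark. Other pathway genes in LE against LPS numbered 10, and 6 with library totals or quantile normalization, 1 at 2-fold and 26 at the lower mark. In LEKU against LE they numbered 8 at the lower mark. In LEKU against LPS they numbered 14, and 8 after quantile normalization, 2 at 2-fold and 24 at the lower mark. All genes numbered 3137, 987 and 2641 at 2-fold and 9251, 6400 and 9201 at the lower mark, for LE against LPS, LEKU against LE and LEKU against LPS. Higher genes made up 57.5% of the genes past 1.5-fold in LE against LPS, 68.0% with library totals and 46.6% after quantile normalization. In LEKU against LPS they made up 56.9%, and 72.1% with library totals, which moved the median of all genes from 0.023 to 0.20. The cause was not tested. With 1 library left out, a condition keeps its fitted mean and the size factors alone move, so this does not stand for replicate error. Members past 1.5-fold then stayed at 1, 0 and 2, other pathway genes at 9 to 10, at 0 and at 14, and all genes at 5572 to 5891, 2639 to 2901 and 5386 to 5560. The spread between cultures is not measured here.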
